A study of Mus musculus with 3072 samples.

Results

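The genes described here are 8 mouse genes of lipid handling: Lpl, Cd36, Fabp5, Fabp3, Plin2, Soat1, Lipa and Ch25h. They were listed by name, and all 8 are among the 29474 genes of the count table. For each gene the level, the share of cells that read it and the number of cells that carry most of its reads were taken in every group.

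The study sequenced single microglia, the resident macrophages of the brain, of male mice, after sorting for CD11b and against the dead-cell dye DAPI. The libraries came from a modified SmartSeq2 protocol, a full-length method whose reads carry no molecular identifiers. The 6 groups used hold 1713 cells. APP/PS1 mice carry the APPswe and PS1dE9 transgenes, which give amyloid plaques, and were 17 months old; 311 cells came from cortex and 273 from hippocampus. APP/PS1-ApoeKO mice carry the same transgenes and no functional Apoe, the gene of the main lipid-carrying apolipoprotein of the brain, and were 18 months old; 169 cells came from cortex and 321 from hippocampus. C57BL/6 mice (326 cells) and C57BL/6-ApoeKO mice (313 cells), both 18 months old, have no transgene and gave cortex cells only. Animals are not named in the labels, and each group is therefore 1 sample. Ratios and shares therefore carry intervals for counting error only, which are too narrow for reads without molecular identifiers, and no p-value was computed. The APP/PS1 and APP/PS1-ApoeKO groups differ in genotype, sequencing lane and 1 month of age, which cannot be told apart; the other 2 cortex groups shared both their lanes.

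Lipoprotein lipase (Lpl) splits the triglycerides of lipoproteins and so frees fatty acids, and the scavenger receptor Cd36 carries long-chain fatty acids and oxidised lipoproteins into macrophages. Inside the cell, fatty acid binding proteins such as Fabp5 and Fabp3 move fatty acids through the cytosol. Perilipin 2 (Plin2) coats lipid droplets, Soat1 esterifies cholesterol for storage in them, and lysosomal acid lipase (Lipa) releases free cholesterol and fatty acids from lipids taken up. Ch25h makes 25-hydroxycholesterol, an oxysterol secreted by activated macrophages. Lpl in particular is one of the genes by which plaque-associated microglia are recognised.

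By their markers the cells were microglia, with reads of other types' genes beside: all 11 homeostatic genes (among them P2ry12, Tmem119 and Cx3cr1) were read in each group, summing to between 50428 and 64981 RPM (reads of the gene per 1000000 reads of the group or cell). The 8 border-associated macrophage genes summed to at most 9.54 RPM and the 8 monocyte genes to at most 28.7 RPM, with Lyve1 at 0 in each group. B cell genes summed to 419 to 667 RPM, with Ms4a1 at 0, astrocyte genes to 294 to 383 RPM and oligodendrocyte genes to 62.5 to 107 RPM, and their part in the results was not tested. Apoe itself, the check of the labels, stood at 13406 RPM in APP/PS1 cortex, 11919 in APP/PS1 hippocampus and 485 in C57BL/6 cortex. It stood at 0.0669, 0.745 and 2.96 RPM in the 3 knockout groups. Reads over a group ranged from 74767907 to 241536311 and the median cell had between 442917 and 765704 reads.

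Lipa and Ch25h lie next to each other on chromosome 19, both on the minus strand, with 17153 bases and 0 annotated genes between them (GENCODE on GRCm38). Yet 34.5% of all cells had a Lipa read and 1.23% had a Ch25h read. Lipa spans chr19:34492318-34527474 and Ch25h chr19:34473778-34475164. Because these neighbours stand so far apart in the cells that read them, the 250 bases before each RefSeq start (GRCm38.p6, minus strand) are printed. They are chr19:34527475-34527724 (Lipa) and chr19:34475149-34475398 (Ch25h), with matches to the searched motifs in capitals. The RefSeq start of Ch25h lies inside the GENCODE span, so its window overlaps the first bases of the gene as given above.
Lipa: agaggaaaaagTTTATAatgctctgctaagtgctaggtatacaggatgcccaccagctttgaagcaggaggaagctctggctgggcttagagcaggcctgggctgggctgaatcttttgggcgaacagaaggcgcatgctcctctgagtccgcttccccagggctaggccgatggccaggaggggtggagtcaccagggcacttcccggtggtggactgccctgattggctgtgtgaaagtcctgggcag
Ch25h: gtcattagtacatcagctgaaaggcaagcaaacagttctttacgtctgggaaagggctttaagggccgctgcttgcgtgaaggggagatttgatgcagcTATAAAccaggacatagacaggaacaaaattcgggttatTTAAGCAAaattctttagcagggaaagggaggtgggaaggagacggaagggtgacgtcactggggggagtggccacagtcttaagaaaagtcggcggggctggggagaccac
The Ch25h window holds TATAAA (the TATA box core), starting 151 bases before the RefSeq start. On the other strand it holds TTGCNNAA (a core of C/EBP sites), starting 112 bases before the RefSeq start. The Lipa window holds TATAAA on the other strand, 239 bases before the start. Of 32851 mouse windows of this length, 12.4% hold TATAAA and 9.56% hold TTGCNNAA on either strand. CACGTG, GAGGAAGT and direct repeats of AGGTCA spaced by 1 or 4 bases were searched on both strands and matched none of the 6 members' windows at hand, and GGGCGG matched that of Cd36 only, whose window does not end at a transcript start of the annotation. A match describes the letters and is not a site. Lpl and Fabp5 had no window at hand.

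The 8 genes fell into widely and rarely read ones. Soat1 had a read in 786 of 1713 cells, Lipa in 591 and Plin2 in 162. Lpl had a read in 72 cells, Fabp5 in 42, Ch25h in 21, Fabp3 in 19 and Cd36 in 6. Per kilobase of exon, the summed level over all cells was 23.5 RPM for Soat1, 22.8 for Lipa, 11.6 for Plin2, 4.40 for Ch25h, 3.91 for Lpl, 1.31 for Fabp5, 1.04 for Fabp3 and 0.257 for Cd36. The reads of the rare genes sat in few cells: 3 cells held at least 50% of all Lpl reads, against 142 cells for Soat1 and 121 for Lipa. Fabp3 overlaps Zcchc17 and Gm10570 on the other strand, Soat1 overlaps Gm37648 and Ch25h overlaps Gm26902. Strand use in the counting is not known here, so reads of such pairs cannot be told apart.

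**Figure D1:**
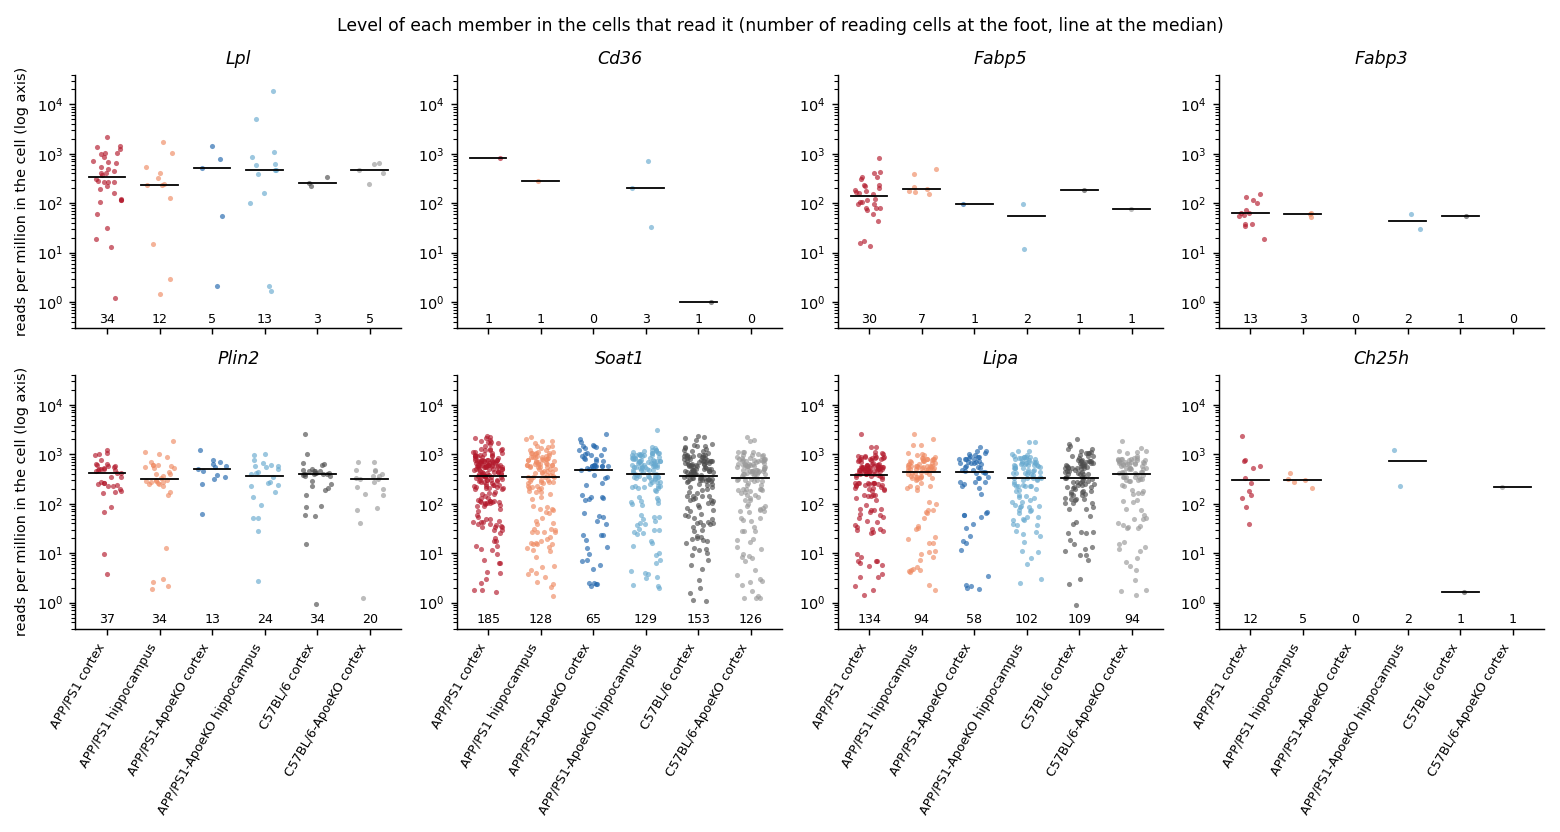
Each point is 1 cell with at least 1 read of the gene, at its level in RPM of that cell (log axis), by group; the black line is the median and the number at the foot counts the reading cells. Lpl, Fabp5, Fabp3 and Ch25h had the most reading cells in APP/PS1 cortex (34, 30, 13 and 12), while 1 APP/PS1-ApoeKO hippocampus cell stood at 18814 RPM of Lpl, above all other points.

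Lpl, the extracellular lipase, was read most often in APP/PS1 cortex. Its level per sample, summed over cells, was 61.9 RPM in APP/PS1 cortex, 22.8 in APP/PS1 hippocampus, 16.3 in APP/PS1-ApoeKO cortex, 147 in APP/PS1-ApoeKO hippocampus, 3.27 in C57BL/6 cortex and 9.75 in C57BL/6-ApoeKO cortex. By level the APP/PS1-ApoeKO hippocampus stood first, but by the share of cells it did not. After each cell was thinned to 100000 reads, so that deeper cells count no more than others, Lpl was read in 10.6% (7.42% to 14.6%) of APP/PS1 cortex cells. Among hippocampus cells the share was 4.04% (2.04% to 7.12%) for APP/PS1 and 3.76% (1.96% to 6.48%) for APP/PS1-ApoeKO. In APP/PS1-ApoeKO cortex it was 2.96% (0.967% to 6.77%). It was 0.920% (0.190% to 2.67%) in C57BL/6 cortex and 1.62% (0.529% to 3.75%) in C57BL/6-ApoeKO cortex. The interval of APP/PS1 cortex overlapped no other group's, and the 5 others overlapped among neighbours. In the cells that read it, the median Lpl level was 342 RPM in APP/PS1 cortex, between 237 and 526 RPM in the other groups.

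Most of the summed Lpl level in APP/PS1-ApoeKO hippocampus came from 1 cell. It held 17440 of the 22256 Lpl reads (78.4%), which made 18814 RPM of that cell, and without it the group stood at 32.0 RPM. The cell read 10 of the 11 homeostatic genes (29829 RPM in sum, with Cx3cr1 at 11621 and P2ry12 at 398 RPM). It read 8 of the 14 activated-microglia genes, with Itgax at 618 and Clec7a at 372 RPM, and Cst7, Axl, Spp1 and Gpnmb at 0. The 14 summed to 10465 RPM in this cell, below the median of 11577 RPM in the group's cells without Lpl reads. The cell was thus not raised in these genes as a list. It had no reads of border-associated macrophage, monocyte or endothelial genes. It did read 1 oligodendrocyte gene (312 RPM), 1 B cell gene (387 RPM) and 1 oligodendrocyte precursor gene (100.3 RPM), whose part in the result was not tested. The lane of that cell stood at 240 RPM and the other lane of the group at 38.0 RPM. In APP/PS1 cortex the top cell held 13.5% of the Lpl reads and 19 cells held 90% of them.

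**Figure D2:**
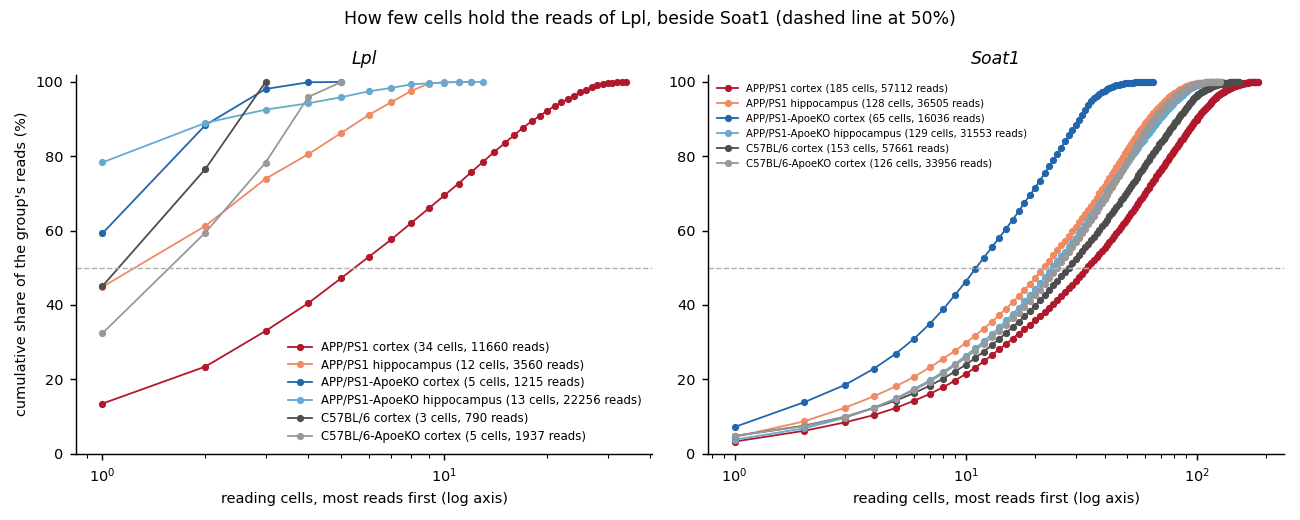
Cumulative share of a group's reads of Lpl (left) and Soat1 (right) against the number of reading cells, ordered by reads (log axis), 1 line a group, dashed line at 50%. For Lpl 1 cell passed the line in both APP/PS1-ApoeKO groups and 6 cells were needed in APP/PS1 cortex; for Soat1 the number was 12 to 34 cells.

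Fabp5, the broadly expressed fatty acid binding protein of macrophages, was read in APP/PS1 and hardly elsewhere. It stood at 18.7 RPM in APP/PS1 cortex and 6.22 in APP/PS1 hippocampus. It stood at 0.281 RPM in APP/PS1-ApoeKO cortex, 0.508 in APP/PS1-ApoeKO hippocampus, 0.364 in C57BL/6 cortex and 0.312 in C57BL/6-ApoeKO cortex. These 4 groups had 1, 2, 1 and 1 reading cells, against 30 and 7. The thinned share was 9.003% (6.07% to 12.7%) in APP/PS1 cortex and 2.57% (1.04% to 5.23%) in APP/PS1 hippocampus, and at most 0.627% (0.0760% to 2.25%) elsewhere. The intervals of APP/PS1 hippocampus and of the 4 low groups overlapped. The annotated copy Fabp5l2 was listed at 0 in each group.

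Fabp3, the heart-type binding protein, was also highest in APP/PS1 cortex. By RPM, which is not corrected for gene length, it stood below Fabp5 in each group. Per kilobase of exon Fabp3 stood above Fabp5 in APP/PS1-ApoeKO hippocampus (0.569 against 0.142 RPM) and C57BL/6 cortex (0.337 against 0.102), and below it elsewhere. Between the hippocampus groups Fabp3 differed less than Fabp5 did. It stood at 3.36 RPM in APP/PS1 cortex (13 reading cells), 0.628 in APP/PS1 hippocampus (3), 0.468 in APP/PS1-ApoeKO hippocampus (2) and 0.277 in C57BL/6 cortex (1). APP/PS1-ApoeKO cortex and C57BL/6-ApoeKO cortex had 0 reads, with upper 95% limits of 0.0493 and 0.0186 RPM for counting error.

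Ch25h, the oxysterol enzyme, stood at 19.3 RPM in APP/PS1 cortex, 7.66 in APP/PS1 hippocampus and 7.29 in APP/PS1-ApoeKO hippocampus. It had 0 reads in APP/PS1-ApoeKO cortex, 2 reads in C57BL/6 cortex and 1.11 RPM in C57BL/6-ApoeKO cortex, all of it in 1 cell. The reading cells numbered 12 and 5 in the APP/PS1 groups, and 2 in APP/PS1-ApoeKO hippocampus, of which 1 held 80.9% of the reads. Cd36, the fatty acid receptor, was close to unread: 1 cell each in APP/PS1 cortex (423 reads), APP/PS1 hippocampus (165 reads) and C57BL/6 cortex (1 read), 3 cells in APP/PS1-ApoeKO hippocampus (345 reads) and 0 in the other 2 groups. The Clopper-Pearson upper limit of the share is 2.16% of cells in APP/PS1-ApoeKO cortex and 1.17% in C57BL/6-ApoeKO cortex.

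Plin2, Soat1 and Lipa were read in every group, with the highest level of each in APP/PS1 cortex and the lowest in C57BL/6-ApoeKO cortex. Soat1 stood at 303 RPM in APP/PS1 cortex, 234 in APP/PS1 hippocampus, 214 in APP/PS1-ApoeKO cortex, 208 in APP/PS1-ApoeKO hippocampus, 239 in C57BL/6 cortex and 171 in C57BL/6-ApoeKO cortex. Its thinned share was 55.9% (50.2% to 61.5%) in APP/PS1 cortex, with an interval above those of the 5 other groups, which lay at 33.7% to 43.9%. Lipa stood at 187, 169, 170, 133, 148 and 131 RPM in the same order, and its shares of 40.2% in APP/PS1 cortex and 27.9% to 32.7% elsewhere had overlapping intervals except against C57BL/6-ApoeKO cortex. Plin2 stood at 56.2, 53.8, 46.9, 28.7, 41.0 and 22.2 RPM, with shares of 6.49% to 11.6% whose intervals all overlapped. The Plin2 level was lower in each knockout group than in its counterpart with Apoe, by 1.20-fold to 1.88-fold. In APP/PS1 cortex this turned with 1 plate, here a part of the wells: the ratio was 1.19 without plate 4 and 0.543 without plate 3. Highest over lowest group was 2.53-fold for Plin2, 1.78-fold for Soat1 and 1.43-fold for Lipa.

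**Figure D3:**
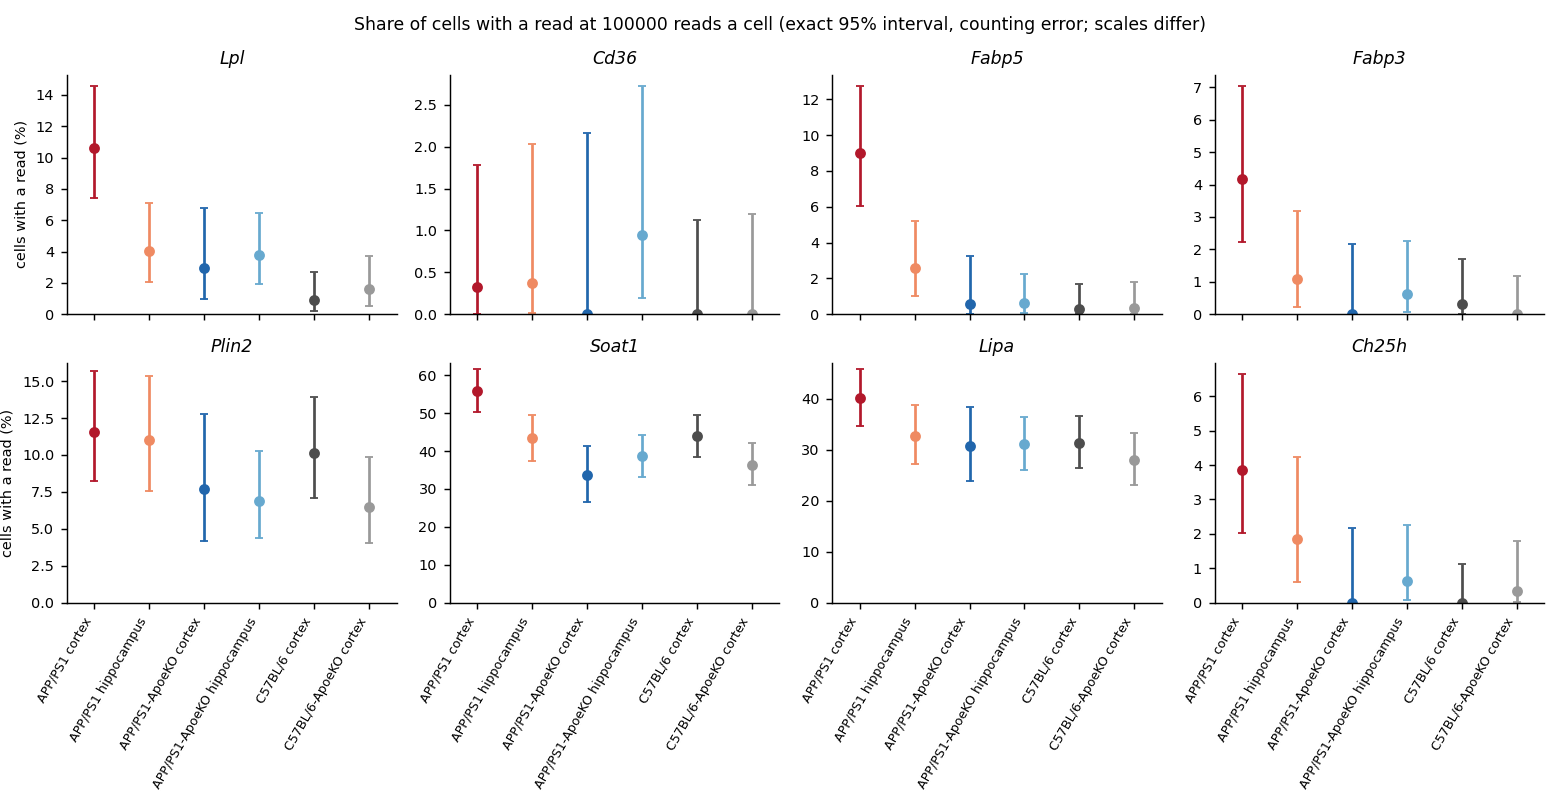
Share of cells with at least 1 read of each gene after thinning to 100000 reads a cell (percent, scale set per gene), by group, with exact Clopper-Pearson 95% intervals for counting error. APP/PS1 cortex was highest for each gene but Cd36, from 55.9% for Soat1 to 3.86% for Ch25h.

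Loss of Apoe in APP/PS1 cortex is the first comparison. All 8 genes were lower in APP/PS1-ApoeKO than in APP/PS1 cortex, and the 5 rarely read ones were lower by more than 2-fold. Lpl was 3.81-fold lower (3.59 to 4.05) and Fabp5 66.4-fold lower (43.4 to 107). Against a floor of 3 reads over the group, used in place of 0, Fabp3 was 83.7-fold lower, Ch25h 482-fold and Cd36 56.0-fold. The Cd36 ratio rests on 1 APP/PS1 cell. Ratios against the floor allow for counting error only and are no minimum, as further cells of the group had reads of these genes. Soat1 was 1.41-fold lower (1.39 to 1.44), Plin2 1.20-fold (1.15 to 1.24) and Lipa 1.10-fold (1.08 to 1.12). Among all 10430 genes with at least 5 RPM in 1 of the groups, 7.63% were 2-fold lower and 16.2% 2-fold higher, and 3 of the 6 members measured there were lower. The median log2 ratio of these genes was 0.22, while that of the 6 members was -1.22. Of these members, Fabp5 and Ch25h reached 5 RPM only in APP/PS1 cortex, so they could enter only as lower. The Ch25h ratio was set by the floor, and the members were chosen with earlier results of these data known. The 2 medians are therefore no test of the members. Rarely read genes scatter more: among genes with reads in under 10% of cells of both groups, a background added after the data were seen, 14.8% were 2-fold lower and 28.2% higher, 43.1% in all.

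The share of cells shows the same order without the weight of single cells. All cells used of this group came from 1 lane. The thinned shares differed, APP/PS1-ApoeKO minus APP/PS1 cortex, by -7.65 percentage points for Lpl, -8.41 for Fabp5, -4.18 for Fabp3 and -22.2 for Soat1, with intervals that did not overlap. For Ch25h, Lipa, Plin2 and Cd36 the intervals overlapped. A further 165 cells of this group, from a lane for which the labels give no read totals, had Lpl at 119 RPM, of which 1 cell held 6373 of 8333 reads. They had Cd36 at 6.30, Fabp5 at 0.928, Fabp3 at 0.571 and Ch25h at 2.44 RPM. With these cells the Lpl ratio was 1.06 and the Cd36 ratio 1.36, so the direction of both turned, and 3 members in place of 5 stayed 2-fold lower.

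In hippocampus the 8 genes had no common direction with the loss of Apoe, 2 of them higher and 6 lower. Lpl was 6.44-fold higher (6.21 to 6.67) in APP/PS1-ApoeKO hippocampus, 2.53-fold without the top cell of each group, while the thinned shares of 3.76% and 4.04% overlapped. Cd36 was 2.15-fold higher (1.78 to 2.61), from 3 cells against 1. Fabp5 was 12.2-fold lower (9.71 to 15.7), with 2 reading cells against 7. Fabp3 was 1.34-fold lower (0.978 to 1.85), from 2 cells against 3. Plin2 was 1.88-fold lower (1.81 to 1.95), Lipa 1.28-fold (1.26 to 1.30) and Soat1 1.12-fold (1.11 to 1.14). Ch25h, at 7.29 and 7.66 RPM, was 1.05-fold lower (0.967 to 1.14), and 3.99-fold lower without the top cells. Among 10189 genes, 10.3% were 2-fold higher and 6.85% lower, and 1 of the 6 members measured there was higher and 1 lower. Of the genes read in under 10% of cells of both groups, 19.9% were higher and 13.2% lower. None of the 8 pairs of share intervals was separate.

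Without amyloid, in cortex, Apoe loss left the rare genes rare. Lpl was 2.98-fold higher (2.74 to 3.24) in C57BL/6-ApoeKO cortex, from 5 cells against 3, but the groups shared both lanes and its direction differed between them. In the first lane C57BL/6 had 0 Lpl reads and C57BL/6-ApoeKO 15.5 RPM. In the second lane they had 6.16 and 4.16 RPM, a ratio of 0.676. Ch25h had 220 reads in 1 cell against 2 reads, a ratio of 134 with a counting interval from 36.6 to 1111. Fabp3 was 18.4-fold lower against the floor of 3 reads, from 1 cell. Plin2 was 1.84-fold lower (1.78 to 1.91), Soat1 1.40-fold (1.38 to 1.42) and Lipa 1.13-fold (1.11 to 1.15). Fabp5, at 1 cell each, was 1.17-fold lower (0.834 to 1.64), and Cd36, at 1 and 0 reads, gave no ratio. Among 10281 genes, 8.66% were 2-fold higher and 6.30% lower, 15.0% in all, against 1 higher and 0 lower of the 4 members measured there. Of the genes read in under 10% of cells of both groups, 31.9% were apart, with 18.9% higher and 13.1% lower.

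With Apoe present, all 8 levels were higher in cortex of APP/PS1 than of C57BL/6 mice. These groups also differ by 1 month of age and in lane, which cannot be told apart from the transgenes. Lpl was 18.9-fold higher (17.6 to 20.4), Fabp5 51.2-fold (41.4 to 64.0) and Fabp3 12.1-fold (9.40 to 15.8). Ch25h and Cd36 had 2 reads and 1 read in C57BL/6 cortex, which gives ratios of 2336 (646 to 19297) and 543 (96.9 to 21483). Plin2 was 1.37-fold higher (1.34 to 1.41), Soat1 1.27-fold (1.26 to 1.29) and Lipa 1.26-fold (1.24 to 1.28). Among 10122 genes, 6.49% were 2-fold higher and 8.71% lower, 15.2% in all. Of the 6 members measured there 3 were higher and 0 lower. These 3 (Lpl, Fabp5 and Ch25h) reached 5 RPM only in APP/PS1 cortex, so they could enter only as higher. Among the genes with reads in under 10% of cells of both groups, 13.8% were higher and 16.4% lower, 30.3% in all. The share intervals were separate for Lpl, Fabp5, Fabp3, Ch25h and Soat1.

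With Apoe absent, the rare genes had no common direction with the transgenes. Lpl was 1.67-fold higher (1.55 to 1.79) in APP/PS1-ApoeKO than in C57BL/6-ApoeKO cortex, and 1.01-fold without the top cells. With the 165 further APP/PS1-ApoeKO cortex cells it was 6.76-fold higher. Fabp5 was 1.11-fold lower (0.668 to 1.92), and Fabp3 and Cd36 had 0 reads in both groups. Ch25h was 27.6-fold lower against the floor, which is no minimum, as its ratio was 1.07 with the further cells. The 220 Ch25h reads of C57BL/6-ApoeKO cortex were all in 1 cell. Plin2 was 2.11-fold higher (2.02 to 2.21), Lipa 1.30-fold (1.27 to 1.32) and Soat1 1.26-fold (1.23 to 1.28). The thinned Plin2 shares, 7.69% against 6.49%, were close. Its ratio ran from 1.15 (by shares of at least 5 reads) to 3.52 (without plate 4). The number of genes with separate share intervals was 0. Among 10478 genes, 10.3% were 2-fold higher and 7.78% lower, beside 1 higher and 0 lower of the 4 members measured there. Of the genes read in under 10% of cells of both groups, 20.4% were higher and 16.2% lower. The amyloid contrasts share no cells, and the difference between them was not tested. Each amyloid contrast shares its groups with the Apoe contrasts in cortex.

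**Figure D4:**
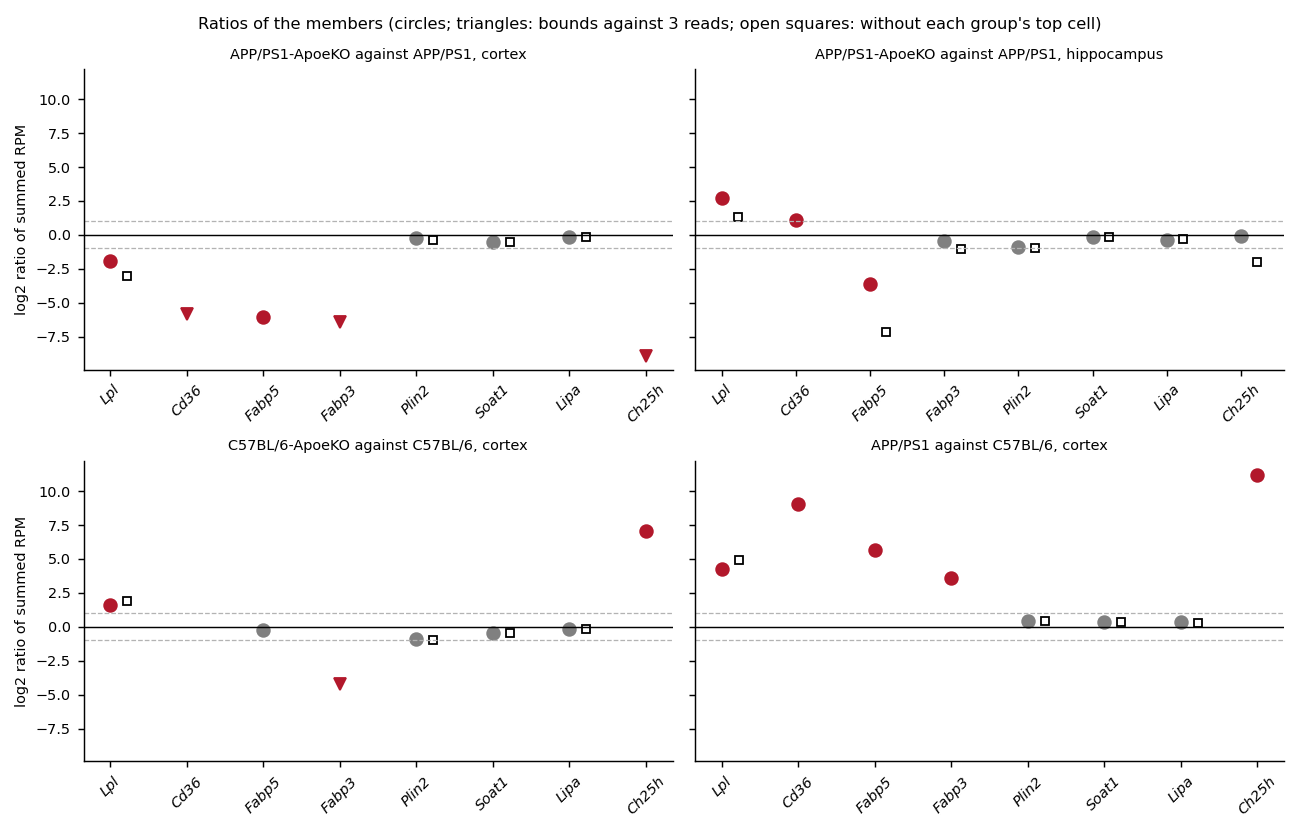
Log2 ratio of summed RPM for each gene in 4 comparisons. Red marks are at least 2-fold apart (dashed lines) and triangles are ratios against the floor of 3 reads. Open squares leave out the cell with the most reads in each group. Cd36 and Ch25h against C57BL/6 rest on 1 and 2 reads there. The widely read Plin2, Soat1 and Lipa stayed within 2-fold in all 4 comparisons.

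Between tissues, all 8 genes were lower in hippocampus than in cortex of APP/PS1 mice, 5 of them by more than 2-fold. Fabp3 was 5.34-fold lower (4.31 to 6.68), Fabp5 3.00-fold (2.79 to 3.22), Lpl 2.71-fold (2.61 to 2.82), Ch25h 2.53-fold (2.37 to 2.70) and Cd36 2.12-fold (1.77 to 2.56). Among 9970 genes, 5.76% were 2-fold lower and 5.81% higher, and 3 of the 6 members measured there were lower. Of the genes read in under 10% of cells of both groups, 26.9% were apart, with 13.5% lower. Both tissues ran in both lanes, and the values differed between these. Plin2 was 74.6 RPM in cortex and 40.7 in hippocampus in the first lane, and 39.8 and 66.4 RPM in the second, so its direction turned. Lpl was 76.1 RPM in cortex and 3.94 in hippocampus in the first lane, and 49.3 and 41.0 RPM in the second. Fabp5 went the other way, with 11.1 and 11.3 RPM in the first lane and 25.4 and 1.31 in the second. In APP/PS1-ApoeKO mice Lpl was 9.04-fold higher (8.53 to 9.58) in hippocampus than in cortex, 4.80-fold without the top cells. Cd36, Fabp3 and Ch25h had 0 reads in cortex and were 56.7-fold, 11.7-fold and 182-fold higher in hippocampus against the floor of 3 reads. With the 165 further cortex cells these ratios were 0.747, 1.70 and 6.17. The cortex and hippocampus cells of these mice came from different lanes, so tissue and lane cannot be told apart. Among 10411 genes, 7.04% were 2-fold higher and 10.9% lower, and 2 of the 5 members measured there were higher and 0 lower. Of the genes read in under 10% of cells of both groups, 36.9% were apart, with 15.4% higher. The share intervals overlapped for all 8 genes.

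In the APP/PS1 groups most cells that read a rare gene also read Cst7, the cystatin that marks activated microglia near plaques. These were 40 of 56 cells in cortex and 14 of 21 in hippocampus. In APP/PS1-ApoeKO they were 1 of 6 cells in cortex and 7 of 16 in hippocampus, in C57BL/6 cortex 1 of 5 and in C57BL/6-ApoeKO cortex 2 of 6. No Cd36-reading cell read Cst7. Cst7 had a read in 24.4% (19.8% to 29.6%) of thinned APP/PS1 cortex cells. The share was 12.1% in APP/PS1 hippocampus, 14.2% in APP/PS1-ApoeKO cortex, 10.97% in APP/PS1-ApoeKO hippocampus, 2.45% in C57BL/6 cortex and 11.4% in C57BL/6-ApoeKO cortex. In APP/PS1 cortex, Lpl was read in 34.2% (23.7% to 46.0%) of the 76 Cst7-reading cells and in 2.98% (1.21% to 6.04%) of the 235 others. Fabp5 was read in 28.9% (19.1% to 40.5%) against 2.55% (0.943% to 5.47%), Fabp3 in 13.2% against 1.28%, and Ch25h in 14.5% against 0.426%. Soat1 was read in 75.0% against 49.8% and Lipa in 57.9% against 34.5%, also with separate intervals. Plin2 was read in 18.4% (10.5% to 29.0%) against 9.36% (5.96% to 13.8%), and these intervals overlapped. All cells of a group share 1 sample, so these shares describe cells and not replicates.

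The other groups held between 8 and 35 Cst7-reading cells. Lpl was read in 8 of 33 Cst7-reading cells of APP/PS1 hippocampus (24.2%) and in 7 of 35 of APP/PS1-ApoeKO hippocampus (20%). It was read in 1 of 24 of APP/PS1-ApoeKO cortex (4.17%, 0.105% to 21.1%) and in 1 of 35 of C57BL/6-ApoeKO cortex (2.86%, 0.0723% to 14.9%). C57BL/6-ApoeKO cortex thus had as many Cst7-reading cells as APP/PS1-ApoeKO hippocampus, 35 each, and 1 against 7 with Lpl. The intervals of these shares, 0.0723% to 14.9% and 8.44% to 36.9%, overlapped. These groups also differ in tissue, transgenes and lane, which cannot be told apart. Ch25h was read in 5 of 33 Cst7-reading cells of APP/PS1 hippocampus and in 0 of the 239 others. Taking the 5 rare genes together, a grouping made after their values were seen, 52.6% of the Cst7-reading cells of APP/PS1 cortex read at least 1 of them. The share was 42.4% in APP/PS1 hippocampus, 20% in APP/PS1-ApoeKO hippocampus, 12.5% (1 of 8 cells) in C57BL/6 cortex, 5.71% in C57BL/6-ApoeKO cortex and 4.17% in APP/PS1-ApoeKO cortex. Among cells with no Cst7 read it was 6.81% in APP/PS1 cortex and 1.26% to 3.45% elsewhere.

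**Figure D5:**
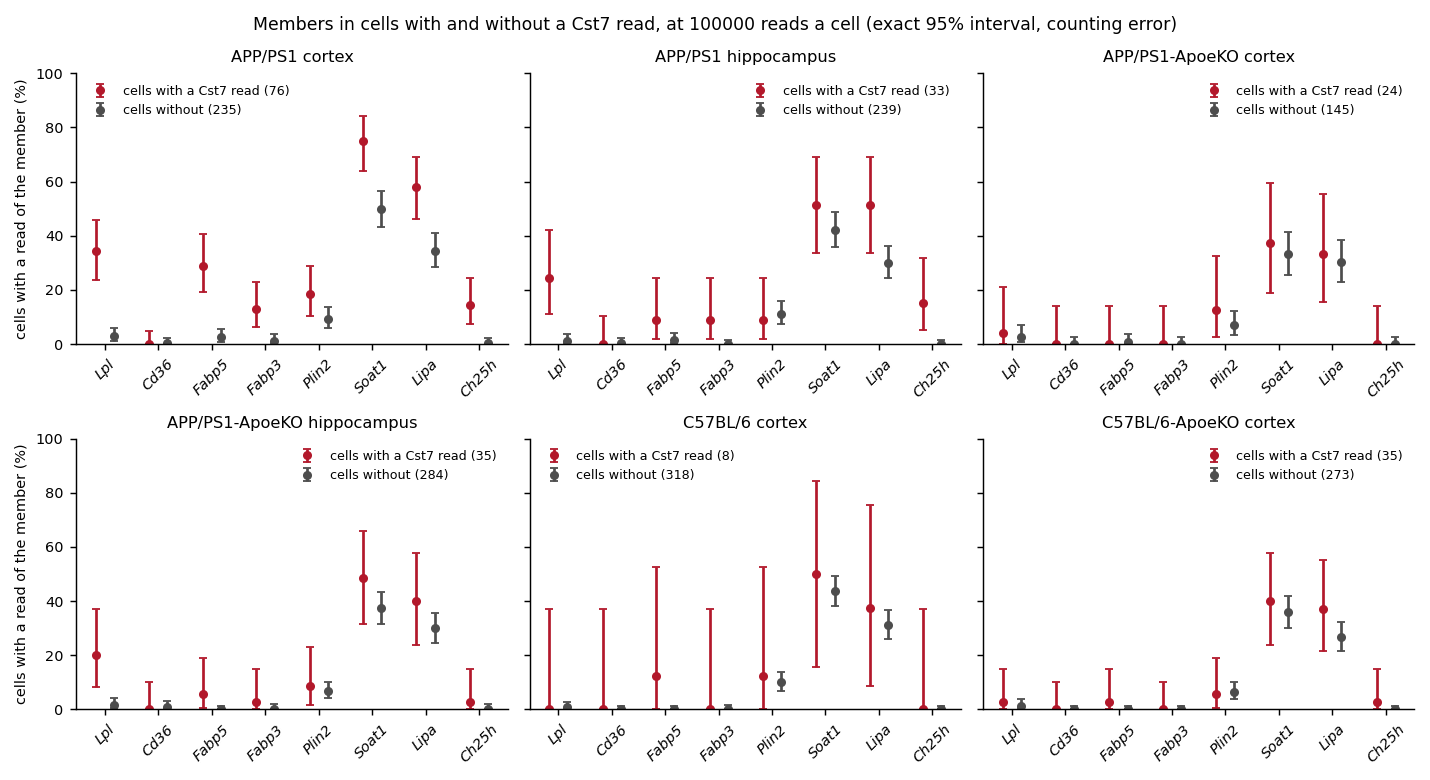
Share of cells with a read of each gene (percent) among cells with a Cst7 read (red) and without (grey), after thinning to 100000 reads a cell, 1 panel a group, with exact 95% intervals for counting error and the number of cells in the legend. In APP/PS1 cortex the intervals were separate for Lpl, Fabp5, Fabp3, Soat1, Lipa and Ch25h, and in both ApoeKO cortex groups they overlapped for all 8 genes.

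Rare genes shared cells in APP/PS1 cortex, and in part elsewhere. There 14 cells read both Lpl and Fabp5, where 2.97 would be the number if the genes were read independently. This is 42.4% of the Lpl-reading and 50% of the Fabp5-reading cells. Fabp3 shared 8 cells with Fabp5 (61.5% of its own) and 7 with Lpl (53.8%), and Ch25h shared 7 of its 12 cells with Lpl. Lipa and Ch25h, the neighbours on chromosome 19, were read together in 8 cells, 66.7% of the Ch25h-reading and 6.4% of the Lipa-reading cells, where independent reading gives 4.82. In APP/PS1 hippocampus 3 of the 5 Ch25h-reading and 2 of the 3 Fabp3-reading cells read Lpl. None of its 7 Fabp5-reading cells read Lpl, Fabp3 or Ch25h. At least 4 of the 8 genes were read in 23 cells of APP/PS1 cortex, 3 of APP/PS1 hippocampus, 2 of APP/PS1-ApoeKO hippocampus and 0 cells of the 3 other groups. At least 2 of the 5 rare genes were read in 20 cells of APP/PS1 cortex, 18 of which read Cst7. A single APP/PS1-ApoeKO hippocampus cell held Lpl at 1073, Fabp5 at 96.9, Fabp3 at 29.6 and Ch25h at 1203 RPM beside Gpnmb at 6220 and Cst7 at 2997 RPM. It also read 1 B cell gene at 2212 RPM, 1 oligodendrocyte precursor gene at 1622 RPM, 1 endothelial gene at 24.2 RPM and 2 monocyte genes at 5.38 RPM, whose part in the result was not tested.

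The Lpl-reading cells of APP/PS1 cortex carried more of the activated-microglia genes and somewhat less of the homeostatic ones. The 14 activated genes, none of them a member, summed to a median of 29678 RPM in the 34 Lpl-reading cells and 12437 RPM in the 277 others. The 11 homeostatic genes summed to 42718 against 51804 RPM. Depth was close, with medians of 644322 and 613111 reads. In APP/PS1-ApoeKO hippocampus the activated genes summed to 18414 RPM in the 13 Lpl-reading cells and 11577 RPM in the others. In APP/PS1-ApoeKO cortex they summed to 8986 RPM in 5 cells against 11557 RPM, and in C57BL/6-ApoeKO cortex to 10355 RPM in 5 cells against 10668 RPM. Border-associated macrophage, monocyte and endothelial genes had a median of 0 in the Lpl-reading cells of each group. In some comparisons the activated list moved with the rare genes. In APP/PS1-ApoeKO against APP/PS1 cortex 7 of its 13 measured genes were 2-fold lower and 0 higher, against 7.63% and 16.2% of all genes. In APP/PS1 against C57BL/6 cortex 9 of 13 were higher and 0 lower, against 6.49% and 8.71%. In APP/PS1 hippocampus against cortex 0 of 13 were higher and 8 lower, against 5.81% and 5.76%. With Apoe loss in C57BL/6 cortex, where the rare genes went both ways, 3 of 11 were higher and 0 lower, against 8.66% and 6.30%. With the transgenes among the knockouts 2 of 11 were higher and 0 lower, against 10.3% and 7.78%. In the remaining comparisons the list went both ways. With Apoe loss in hippocampus 2 of 13 were higher and 3 lower, against 10.3% and 6.85%. In APP/PS1-ApoeKO hippocampus against cortex 1 of 12 was higher and 1 lower, against 7.04% and 10.9%.

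Of 64 further genes of lipid uptake, storage and oxysterols, 60 are in the table. In APP/PS1-ApoeKO against APP/PS1 cortex, 5 of 38 measured were 2-fold higher and 4 lower, against 16.2% and 7.63% of all genes, with a median log2 ratio of 0.07 beside 0.22 for all genes. Colec12, a scavenger receptor, had 0 reads in all 3 ApoeKO groups, and 70.9 RPM in APP/PS1 cortex, 67.3 in APP/PS1 hippocampus and 37.3 in C57BL/6 cortex. Against the floor of 3 reads it was 1767-fold lower in APP/PS1-ApoeKO cortex and 3403-fold lower in APP/PS1-ApoeKO hippocampus. Nceh1, a cholesteryl ester hydrolase, was 2.98-fold lower (2.87 to 3.10) in APP/PS1-ApoeKO cortex and 3.67-fold higher (3.57 to 3.76) in APP/PS1 over C57BL/6 cortex. Acsl4, which activates arachidonic acid, went the other way: 2.26-fold higher (2.16 to 2.37) in APP/PS1-ApoeKO cortex, 2.73-fold higher (2.62 to 2.84) in hippocampus, and 2.98-fold lower (2.88 to 3.09) in APP/PS1 than in C57BL/6 cortex. Stab1, another scavenger receptor, was 2.17-fold higher (2.14 to 2.20) in APP/PS1-ApoeKO cortex.

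In hippocampus 2 of 36 of these genes were 2-fold higher and 2 lower with Apoe loss, against 10.3% and 6.85% of all genes. Without amyloid 1 of 35 was higher and 3 lower, against 8.66% and 6.30%. In APP/PS1 against C57BL/6 cortex 7 of 38 were higher and 3 lower, against 6.49% and 8.71%, with a median log2 ratio of 0.08 beside -0.11 for all genes. Among them Rxra, the partner receptor of lipid-sensing nuclear receptors, was 2.76-fold higher (2.63 to 2.90) and Plin3, a droplet coat protein, 2.25-fold higher (2.17 to 2.34). Among the knockouts 6 of 35 were higher with the transgenes and 0 lower, against 10.3% and 7.78% of all genes, with Rxra at 2.59-fold (2.47 to 2.72) and Scarb1, the high-density lipoprotein receptor, at 2.04-fold (1.97 to 2.11). The 3 genes of lysosomal cholesterol exit (Npc1, Npc2 and Stard3) stayed within 2-fold in all 7 comparisons. No gene had a Pearson r of 0.3 or more over cells with Plin2, Soat1 or Lipa in both APP/PS1 tissues, so none is named as alike, and the 5 rare genes were read in too few cells for this measure.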

How the data were processed

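Single cells were read by a modified SmartSeq2 protocol, per the labels' protocols. The deposited table holds raw counts of reads per gene and cell, which the authors did not normalise. The submitters' processing notes name the build mm10 and, without their roles, Seurat 2.3.1, featureCounts 1.5.1 and STAR 2.5.2. The rules for strand and for reads mapping to several places are not given in the sources used here.

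Cells were taken where the labels give a read total, which equalled the sum of the counts in all 1713. Another 165 cells of APP/PS1-ApoeKO cortex had counts and no such total and enter only as an alternative. APP/PS1 cells of 18 months were not analysed here. A level is the sum of a gene's reads in a group over the sum of all its reads (RPM). A ratio of RPM carries an exact conditional binomial 95% interval, a share of cells a Clopper-Pearson one. For shares each cell was thinned to 100000 reads, which left out 8 shallower cells. A ratio of at least 2 either way counts as apart. The background is the share of all genes with at least 5 RPM in 1 of the groups that are apart. A gene that reaches 5 RPM in only 1 of the groups is higher there by this rule, so its direction is set. Besides the members named above, this holds for Fabp5 (Apoe loss, hippocampus), Lpl (Apoe loss, C57BL/6) and Ch25h (tissues, knockouts). With 0 reads, a floor of 3 reads over the group was used. With 1 sample per group no test was run across samples. Cells were filtered by no further rule and no doublet caller was run. The calculations used Python 3.11.15, numpy 2.4.6, scipy 1.17.1 and pandas 2.3.3. They were checked on simulated counts drawn independently for each gene (Poisson), without the clumping of reads in few cells. This check covers the arithmetic and not the calls of the rare genes.

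The members and the gene lists were chosen with earlier results of these data known. All 8 members are described. Of the other pathway genes, those named reached 20 RPM, were read in 10% or more of the cells of 1 group and were 2-fold apart, up to 4 by size in a comparison. Alternatives were other thinning depths, the mean of RPM over cells, leaving out top cells, parts of the wells (called plates here) or lanes, and adding the 165 cells.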

Additional observations from a re-analysis of the deposited data

Results flagged for a closer look

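Genes at least 2-fold apart in opposite directions in contrasts of the same kind were Lpl, Cd36, Fabp3 and Ch25h, each over groups of 1 sample, so the difference was not tested in any of them. Values are differences of log2 ratios. The ratio for loss of Apoe in APP/PS1 was lower in cortex than in hippocampus by a difference of -4.62 for Lpl and -6.91 for Cd36, the second against a floor of 3 reads. Hippocampus against cortex gave a difference of -5.96 for Fabp3 and -8.84 for Ch25h between APP/PS1 and APP/PS1-ApoeKO, both against that floor. Loss of Apoe in cortex gave a difference of -3.51 for Lpl and -15.98 for Ch25h between APP/PS1 and C57BL/6 mice, the last resting on 0 reads in APP/PS1-ApoeKO and 2 reads in C57BL/6 cortex.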

How the results depend on the processing

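Of 294 values of members at least 2-fold apart recomputed under alternatives, 284 kept their direction and 257 were still 2-fold apart. The direction turned for 10. With the 165 further cells the ratio was 1.06 for Lpl and 1.36 for Cd36 (Apoe loss, cortex), 1.07 for Ch25h (amyloid among knockouts) and 0.747 for Cd36 (tissues, knockouts). In hippocampus with Apoe loss, Lpl was at a ratio of 0.930, 0.765 and 0.921 by shares at 100000 reads, 200000 reads and unthinned, and Cd36 ran from 0.517 (without plate 2) to 87.2 (without plate 4, against the floor), against 2.15. Within 1 lane, Lpl was at 0.676 (Apoe loss, C57BL/6) and Fabp5 at 1.02 (tissues, APP/PS1).

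The number of members apart was 5 for Apoe loss in cortex, 3 with the further cells and 2 by shares of at least 5 reads. In hippocampus it was 3, and 5 without top cells. In C57BL/6 it was 3, but 5 by the mean over cells, 1 without top cells, 1 within the second lane and 0 by each of the 4 kinds of share. For amyloid among knockouts it was 2, but 4 by the mean over cells, 1 without top cells and 0 by each share. For tissues it was 5 in APP/PS1, 2 within the first lane and 3 by shares of at least 5 reads. In knockouts it was 4, 2 with the further cells and 0 by each share. The 5 for amyloid with Apoe did not move by over 1.5 times. Without 1 plate each, the counts ran from 4 to 5, 3 to 5, 1 to 3, 4 to 5 (amyloid with Apoe), 1 to 3 (amyloid among knockouts), 4 to 4 and 2 to 6. The causes were not tested. Among all genes with more than 3 reads in 1 of the groups, 41.4% were apart for Apoe loss in cortex. The share was 38.6% in hippocampus and 38.2% in C57BL/6. It was 37.9% for amyloid with Apoe and 37.8% for amyloid among knockouts. For tissues it was 34.2% in APP/PS1 and 37.6% in knockouts. The counts of 3 of 8 (hippocampus), 3 of 7 (C57BL/6), 2 of 6 (amyloid among knockouts) and 4 of 8 (tissues, knockouts) lay near these shares.

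No paired analysis was possible because each group is 1 sample and its cells carry no replicate number. Depth limits the shares: 1 read at 100000 reads is 10 RPM of a cell.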

Other observations

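The 165 APP/PS1-ApoeKO cortex cells without a read total in the labels had Soat1 at 251 RPM, Lipa at 174 RPM and Plin2 at 25.7 RPM. Lpl was read in 8 of them, Cd36 in 4, and Fabp5, Fabp3 and Ch25h in 1 each. Of 441 Cd36 reads, 438 were in 1 cell.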
